A study of Mus musculus with 6 samples.

Results

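RNA of 10 genes of the Notch pathway was compared in mouse splenic natural killer (NK) cells: the ligand gene Dll1, the receptor genes Notch1 and Notch2, the protease genes Adam10 and Adam17, the nuclear genes Rbpj, Maml1 and Maml2, the modulator gene Dtx1 and the target gene Hes1. They were chosen by name from among the 8520 genes measured, with earlier results of these data known. The study compared RNA of NK cells from spleens of 20 C57BL/6Ncr mice aged 6 to 8 weeks, with no treatment and no altered allele in either group. Cells with NK1.1 and without CD3 on their surface were split by flow sorting into those with Ly49G but no Ly49C/I (called Ly49G+ here) and those with Ly49C/I but no Ly49G (Ly49I+), with 3 libraries each. Ly49G and Ly49I are inhibitory receptors for MHC class I that only some NK cells carry. The labels name the libraries biological replicates but do not say which mice fed each one, so the tests measure the spread between these libraries.

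Notch signalling passes between touching cells. A ligand of the Delta or Jagged family on one cell binds a Notch receptor on the next, ADAM proteases and then gamma-secretase cut the receptor, and the freed intracellular part enters the nucleus. There it joins the DNA-binding protein RBPJ and a Mastermind-like co-activator, and genes such as Hes1, Dtx1 and Nrarp are switched on. In lymphocytes the pathway is best known for committing precursors to the T cell lineage and for marginal zone B cells, and it also acts in the development of innate lymphoid cells.

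Library totals ran from 33599679 to 40892154 reads, and the members had between 186 reads (Dll1 in one Ly49I+ library) and 16620 reads (Notch2). Values are given as CPM, counts per 1000000 reads of the library, and where 3 values are listed for a group they are those of replicates 1, 2 and 3 in that order. Genes that define NK cells, such as Ncr1 at 1906 to 2229 CPM and Klrb1c at 1248 to 1343 CPM, were high in all 6 libraries. Ly49G RNA (Klra7) stood at 974 ± 59.9 CPM in Ly49G+ and 11.2 ± 0.475 CPM in Ly49I+ libraries (SD, n = 3 each), which matches the labels of the sort. Ly49I RNA (Klra9) went the other way, at 1068 ± 110.1 CPM in Ly49I+ and 78.1 ± 5.29 CPM in Ly49G+ libraries. It was thus lower but not absent in Ly49G+ libraries, and its source there was not tested. Genes known from other cells were also found. Of 13 T cell markers 8 were measured, and their summed level was 610.4 to 680.0 CPM in Ly49G+ against 502.7 to 538.0 CPM in Ly49I+ libraries, with 5 of the 8 past the test toward Ly49G+. Most of that sum came from Cd247, Trbc1 and Cd28, the first of which NK cells also express, and without these 3 it was 110.9 to 157.7 CPM against 53.7 to 62.5 CPM. In Ly49I+ libraries, where Cd3e was at most 1.22 CPM, Trbc1 stood at 109.4 to 115.7 CPM and Cd28 at 79.01 to 86.95 CPM. The cells that gave this RNA were not tested. Of 14 markers of nonclassical monocytes 12 were measured, with sums of 1222 to 1278 CPM in Ly49G+ and 1788 to 2964 CPM in Ly49I+ libraries, and 10 of the 12 past the test toward Ly49I+. Most of the sum in Ly49G+ libraries was Itgam, which NK cells also express, and without it the sums were 86.7 to 148.7 CPM in Ly49G+ and 327.4 to 1376 CPM in Ly49I+ libraries. Of 13 B cell markers 4 were measured, and 0 passed. Over all genes 1.82% passed toward Ly49G+ and 1.77% toward Ly49I+. Every gene measured reached 10 CPM in at least 2 libraries. The T cell markers Cd3e, Cd3d and Trac did so in Ly49G+ libraries alone. The monocyte markers Ace, Adgre4, Treml4, Csf1r, Cd300ld, Sirpa, Tlr13 and Cybb did so in Ly49I+ libraries alone. The calls of these markers follow in part from that floor and are not counted as support.

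Of the 10 genes 2 rose in Ly49G+ cells, 0 rose in Ly49I+ cells and 8 did not pass the test. Over all 8520 genes 3.59% passed (306 genes), 1.82% toward Ly49G+ and 1.77% toward Ly49I+. As the 10 genes were chosen with earlier results known, nothing is read from their share about the pathway. The pair that rose were Dll1, at 2.30-fold, and Dtx1, at 1.88-fold. The receptors, the proteases, the nuclear complex and Hes1 differed by at most 1.23-fold. The table holds only genes that reached 10 CPM in at least 2 libraries, and Dll1 did so in Ly49G+ libraries alone, so it is listed because of the group where it was high and its call is not counted as support. Of the 9 genes that reached 10 CPM in at least 2 libraries of each group, Dtx1 alone passed, and of all 8070 such genes 251 did (3.11%). In 3 of the 10, Dll1, Dtx1 and Notch2, the libraries of the groups did not overlap, where 25.8% of all genes had such separated groups. Adjusted p-values come from limma, a linear model per gene, with Benjamini-Hochberg adjustment over all 8520 genes and a threshold of 0.05.

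**Figure D1:**
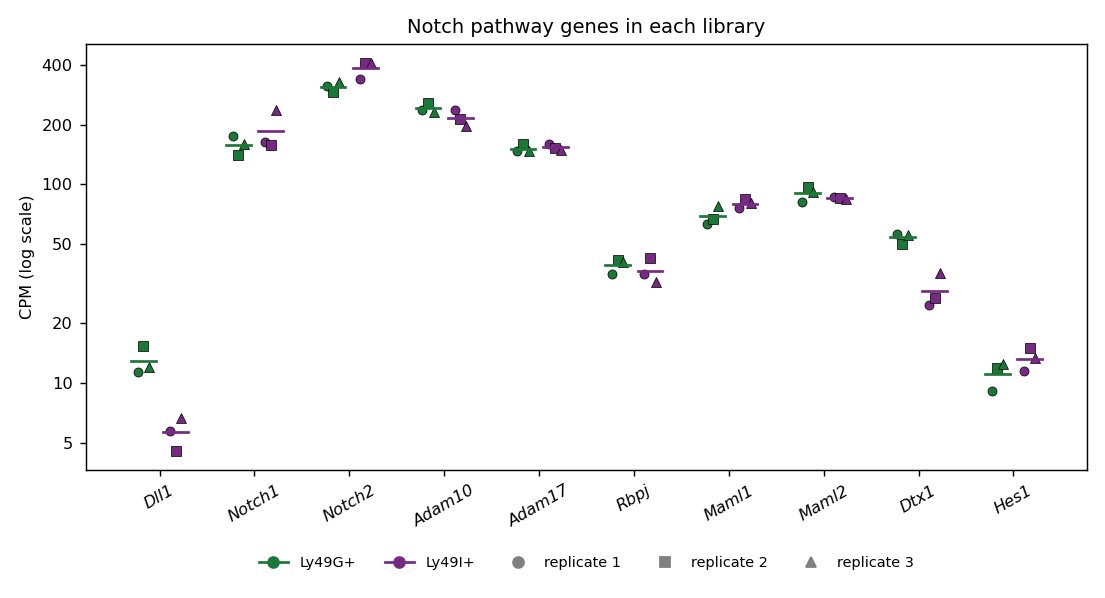
CPM of the 10 genes (y axis, log scale) in each of the 6 libraries, Ly49G+ in green and Ly49I+ in purple, with symbols for the replicate number and a line at each group's mean. Dll1 and Dtx1 show separate groups with all Ly49G+ libraries higher, Notch2 shows separate groups with all Ly49I+ libraries higher, and the groups of the other 7 genes overlap.

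The only ligand gene measured was Dll1 (gene 13388, chr17:15367354-15376932 on GRCm38.p6, minus strand), which encodes Delta-like 1, a membrane ligand that activates Notch receptors on neighbouring cells. The other 6 genes of the ligand list, among them Dll4, Jag1 and Jag2, were not analysed here. The 250 bases before its outermost RefSeq start are shown because Dll1 had the largest difference of the 10 genes. They lie at chr17:15376933-15377182 and are written from 5′ to 3′ on the strand of the gene, from the RefSeq promoter table of GRCm38.p6. They hold no annotated exon of Dll1 itself, but share 250 bases with annotated exons outside Dll1.
Dll1 upstream: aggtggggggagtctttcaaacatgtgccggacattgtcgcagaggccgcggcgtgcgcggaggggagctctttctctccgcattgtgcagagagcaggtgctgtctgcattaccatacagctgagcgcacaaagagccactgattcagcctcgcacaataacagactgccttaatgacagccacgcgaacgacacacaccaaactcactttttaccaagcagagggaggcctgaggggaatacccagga
The stretch has 56.0% G and C, against a median of 52.4% over 32851 RefSeq promoter windows of this length, and holds 13 CpG pairs. It contains no TGGGAA on either strand, the core of the sequence that RBPJ is known to bind.

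Dll1 RNA measured 11.4, 15.3 and 12.1 CPM in the Ly49G+ libraries, and 5.73, 4.56 and 6.68 CPM in the Ly49I+ libraries. Every Ly49G+ library was above every Ly49I+ library, and Ly49G+ replicate 2 was the highest. The group means were 13.0 ± 2.08 and 5.66 ± 1.06 CPM (SD, n = 3 each). The log2 difference was 1.20 ± 0.21 (SE, 95% interval 0.75 to 1.66, limma adjusted p = 0.00949), which is 2.30-fold with an interval of 1.68-fold to 3.15-fold. As Dll1 met the 10 CPM floor of the table through Ly49G+ libraries alone, these values describe the libraries and the p is not independent of how the gene came to be listed. Without Ly49G+ replicate 2 the difference was 1.07 and the adjusted p was 0.0788, so the call needed that library. In that fit 94 of all genes passed (1.1%), against 306 with no library left out. Under quantile normalization between libraries the difference was 2.01. In bulk RNA, more cells with a transcript and more transcript per cell cannot be told apart.

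Exons of Dll1 share 867 bases with exons of A930024N18Rik, a noncoding gene on the opposite strand that was not analysed here. The libraries were strand-specific, but no source used here says whether the counting used the strand. If it did not, reads of the overlapping genes cannot be told apart. T cell genes moved the same way as Dll1. Cd3e, a chain of the T cell receptor complex, measured 9.27, 18.5 and 11.5 CPM in the Ly49G+ libraries and 0.592, 1.06 and 1.22 CPM in the Ly49I+ libraries. Trac, the constant part of the T cell receptor alpha chain, stood at 20.6, 34.6 and 29.4 CPM in Ly49G+ and at 4.95, 9.57 and 8.19 CPM in Ly49I+. Within Ly49G+ all of these were highest in replicate 2. Within Ly49I+ there was no such common order: Dll1 and Cd3e were highest in replicate 3, Trac in replicate 2. The part of T cell RNA in the Dll1 difference was not tested.

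The receptors were both measured at far higher read numbers than the ligand. Notch1 (gene 18128, chr2:26457902-26503822, minus strand), the receptor that drives T lineage commitment, stood at 174.5, 140.9 and 159.1 CPM in Ly49G+ and at 162.8, 158.6 and 236.6 CPM in Ly49I+. Only Ly49I+ replicate 3 lay clearly above the rest, and the groups overlapped. Its log2 difference was -0.21 ± 0.14 (95% interval -0.53 to 0.10, limma adjusted p = 0.416). Exons of Notch1 share 1068 bases with 0610009E02Rik and 414 bases with Gm13568, both on the opposite strand.

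Notch2 (gene 18129, chr3:98013538-98150367, plus strand), the receptor needed for marginal zone B cells, stood at 314.3, 290.7 and 326.7 CPM in Ly49G+ and at 337.5, 406.4 and 406.1 CPM in Ly49I+. The highest Ly49G+ library was just below the lowest Ly49I+ library, and Ly49I+ replicates 2 and 3 were level. The group means were 310.6 ± 18.3 and 383.3 ± 39.7 CPM (SD, n = 3 each). The log2 difference of -0.30 ± 0.09 (95% interval -0.50 to -0.10) did not pass over all genes (limma adjusted p = 0.0995). With the replicate number as a block, a term that lets each number have its own level, it passed (adjusted p = 0.0208), as it did without Ly49I+ replicate 1 (difference -0.39, adjusted p = 0.0153). Over all genes 11.7% passed with the block, 993 of them, so passing there sets a gene less apart than in the fit without the block. Exons of Notch2 share 541 bases with Gm42820 on the same strand, where the strand cannot tell reads apart.

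Monocyte genes also had more RNA in Ly49I+ libraries. Csf1r, whose product receives the growth signal of macrophages, stood at 41.3, 138.1 and 31.7 CPM in Ly49I+ and at 1.53, 4.47 and 5.94 CPM in Ly49G+. Notch2 was as high in Ly49I+ replicate 3, where Csf1r was lowest of that group, as in replicate 2, where Csf1r was highest. Without Ly49I+ replicate 2 the Notch2 difference was -0.26. The part of monocyte RNA in the Notch2 difference was not tested.

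On the scale of a ratio within a library, which no scaling between libraries can move, the log2 ratio of Notch2 to Notch1 CPM was 0.98 ± 0.11 in Ly49G+ and 1.06 ± 0.29 in Ly49I+ libraries (SD, n = 3 each). The difference of -0.09 was smaller than the spread (exact permutation test, two-sided, p = 0.7, and 0.7 adjusted over the 3 ratios compared). With 3 libraries against 3 this test cannot give a p below 0.1. Without Ly49I+ replicate 2 the difference was 0.06, so it has no firm direction.

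ADAM10 and ADAM17 are membrane proteases that make the extracellular cut in Notch receptors, ADAM10 mainly after ligand binding. Adam10 (gene 11487, chr9:70678944-70780229, plus strand) stood at 235.9, 256.9 and 232.2 CPM in Ly49G+ and at 236.3, 213.3 and 196.8 CPM in Ly49I+. The groups overlapped through Ly49I+ replicate 1, and the log2 difference was 0.17 ± 0.08 (95% interval -0.02 to 0.35, limma adjusted p = 0.294). Adam17 (gene 11491, chr12:21323509-21373632, minus strand) was the steadiest of the 10 genes, at 147.0, 160.1 and 147.7 CPM in Ly49G+ and 160.1, 153.2 and 149.0 CPM in Ly49I+. Its log2 difference was -0.02 ± 0.07 (95% interval -0.18 to 0.14, limma adjusted p = 0.874), so a difference beyond 0.18 in either direction lies outside the interval. Its exons share 311 bases with Iah1 on the opposite strand.

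The log2 ratio of Adam17 to Adam10 CPM was -0.68, -0.68 and -0.65 in Ly49G+ and -0.56, -0.48 and -0.40 in Ly49I+. Every Ly49G+ library was below every Ly49I+ library. The difference of -0.19 reached the smallest p that the exact permutation test can give here (two-sided p = 0.1, and 0.15 adjusted over 3 ratios).

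RBPJ binds DNA and holds target genes silent until the Notch intracellular part arrives, and Mastermind-like proteins then bring in the acetyltransferases that open them. Rbpj (gene 19664, chr5:53555779-53657445, plus strand) stood at 35.6, 41.6 and 40.7 CPM in Ly49G+ and at 35.4, 42.9 and 32.3 CPM in Ly49I+. Both the highest and the lowest value fell in Ly49I+ libraries, and the log2 difference was 0.10 ± 0.12 (95% interval -0.16 to 0.36, limma adjusted p = 0.66).

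Windows of 250 bases before a RefSeq start were found for 9 of the 10 genes, 12 windows in all, and Hes1 had none. Some of these starts lie inside the gene, so a window can hold exon bases of its own gene. The RBPJ core TGGGAA, searched on both strands, occurred in 3 of the 12 windows, 2 of them overlapping ones of Rbpj and 1 of Maml2. All 3 of these windows lie inside the gene, before an internal start. Of the Rbpj matches, the one written TTCCCA lies in an exon of Rbpj. Of all 32851 windows of that length 21.6% hold it. The 30 bases around each match are shown for the gene that encodes the DNA-binding factor itself and for its co-activator, on the plus strand with the match in capitals, and TTCCCA is a match on the opposite strand.
Rbpj chr5:53590185-53590214: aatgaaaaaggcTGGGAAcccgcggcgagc
Rbpj chr5:53590269-53590298: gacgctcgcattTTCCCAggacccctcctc
Maml2 chr9:13662303-13662332: acactcttgcacTTCCCAgggctcgggcag
Neither Dll1 nor Dtx1, the genes that rose, had a match in these windows. The only Dtx1 window lay wholly in annotated exons of Dtx1 (250 bases), and 1 of the Dll1 windows held 153 exon bases of Dll1. For Dtx1 the lack of a match thus describes exon sequence. A match of 6 letters is a description of the sequence, not evidence of binding.

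Maml1 (gene 103806, chr11:50255634-50293131, minus strand) stood at 62.9, 67.3 and 78.2 CPM in Ly49G+ and at 75.8, 84.3 and 80.4 CPM in Ly49I+. Ly49G+ replicates 1 and 2 were the lowest of the 6, and Ly49G+ replicate 3 lay among the Ly49I+ libraries. The log2 difference was -0.21 ± 0.10 (95% interval -0.42 to 0.00, limma adjusted p = 0.252). Maml2 (gene 270118, chr9:13296561-13709533, plus strand) stood at 81.7, 97.5 and 91.1 CPM in Ly49G+ and at 87.0, 85.5 and 84.4 CPM in Ly49I+. Its Ly49I+ libraries were nearly level and lay inside the range of the Ly49G+ libraries. The log2 difference was 0.07 ± 0.08 (95% interval -0.12 to 0.25, limma adjusted p = 0.665). Exons of Maml1 share 135 bases with Gm26542 on the opposite strand, and those of Maml2 101 bases with Gm22643 on the same strand.

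The paralogues thus had differences of opposite sign, and their log2 ratio, Maml2 to Maml1, was 0.38 ± 0.16 in Ly49G+ and 0.10 ± 0.09 in Ly49I+ libraries (SD, n = 3 each). The groups did not overlap, but narrowly, with Ly49G+ replicate 3 at 0.22 and Ly49I+ replicate 1 at 0.20. The difference of 0.28 also stood at the smallest possible p (exact permutation test, two-sided, p = 0.1, and 0.15 adjusted over 3 ratios).

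Dtx1 (gene 14357, chr5:120680203-120711867, minus strand) encodes Deltex 1, a ubiquitin ligase that binds the intracellular part of Notch and whose gene is itself a known Notch target in lymphocytes. It stood at 56.5, 50.1 and 55.9 CPM in Ly49G+ and at 24.8, 26.9 and 35.7 CPM in Ly49I+. The Ly49G+ libraries were close together, and the highest Ly49I+ library, replicate 3, was well below the lowest of them. The group means were 54.2 ± 3.56 and 29.1 ± 5.81 CPM (SD, n = 3 each). The log2 difference was 0.91 ± 0.13 (95% interval 0.62 to 1.20, limma adjusted p = 0.00401), which is 1.88-fold with an interval of 1.53-fold to 2.30-fold. Dtx1 kept its call without any single library, with differences from 0.80 to 1.07, and only 0.939% of all genes differed by more. Within Ly49G+ Dtx1 was lowest in replicate 2, where Dll1, Cd3e and Trac were highest. The part of T cell RNA in the Dtx1 difference was not tested. Without replicate 2 of both groups, the difference was 0.92 and the adjusted p was 0.0741.

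Hes1 (gene 15205, chr16:30065357-30067796, plus strand), a transcriptional repressor and the best known target of Notch, was not past the test. It stood at 9.12, 11.9 and 12.5 CPM in Ly49G+ and at 11.5, 15.0 and 13.4 CPM in Ly49I+. Ly49G+ replicate 1 was the lowest and Ly49I+ replicate 2 the highest, and the groups overlapped. The log2 difference was -0.26 ± 0.17 (95% interval -0.64 to 0.13, limma adjusted p = 0.417), so a rise in Ly49G+ of the size seen for Dtx1 lies outside the interval. Hes1 had 306 to 613 reads per library. Its highest library was also the one highest in Csf1r and in Lyz2, the lysozyme gene of myeloid cells (351.9 CPM against 72.5 to 98.6 CPM in the other Ly49I+ libraries), and the part of monocyte RNA in Hes1 was not tested.

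**Figure D2:**
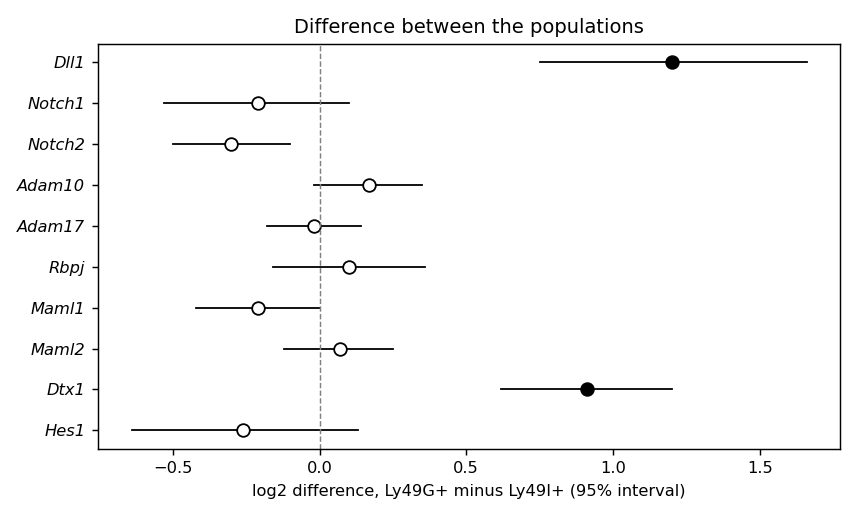
Log2 difference of Ly49G+ minus Ly49I+ for the 10 genes (x axis), as the limma estimate with its 95% interval, filled where the adjusted p was under 0.05. Dll1 at 1.20 and Dtx1 at 0.91 stand to the right, the intervals of 6 others include 0, and those of Notch2 and Maml1 end at -0.10 and 0.00.

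To compare levels between genes, CPM was divided by the length of all annotated exons of the gene in kilobases. On that scale Adam10 was highest at 46.5 ± 4.24 CPM per kb over the 6 libraries (SD), above 90.1% of the genes with a known length. Notch2 followed at 32.2 ± 4.50 and Adam17 at 21.4 ± 0.845. These 3 genes did not overlap with each other or with those below in any library. Maml1 at 13.5 ± 1.47, Maml2 at 13.3 ± 0.855 and Notch1 at 12.1 ± 2.35 overlapped and have no order. Dtx1 followed at 7.90 ± 2.73, the spread reflecting its difference between the groups, and its range touched both Notch1 and Hes1 (6.01 ± 0.969). Rbpj at 2.98 ± 0.332 and Dll1 at 2.21 ± 1.01 were lowest, and Dll1 was above only 5.27% of genes. In Ly49G+ libraries Dll1 reached 3.07 ± 0.492 CPM per kb, level with Rbpj at 3.08 ± 0.254, while in Ly49I+ libraries it stood at 1.34 ± 0.251 against 2.89 ± 0.429 for Rbpj. These levels depend on the length used, 12750 bases for Rbpj and 4219 for Dll1, which need not be that of the transcripts present. Before division by length, Ly49G+ means were 39.3 CPM for Rbpj and 13.0 CPM for Dll1.

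The wider pathway was taken from lists of ligands, receptors, processing enzymes, nuclear partners, modulators and targets, with 57 measured genes, 47 of them besides the 10. Of these 47, 2 rose in Ly49G+ cells, 0 rose in Ly49I+ and 45 did not pass, a share of 4.26% against 3.59% of all genes. The 2 were Tcf7 and Myc. The median difference of the 47 was -0.02 on the log2 scale, as over all genes. With the replicate block 9 of the 57 passed, 5 toward Ly49G+ and 4 toward Ly49I+, where 11.7% of all genes did. Without Ly49I+ replicate 1 there were 11, 5 toward Ly49G+ and 6 toward Ly49I+, where 7.56% of all genes passed. Without Ly49G+ replicate 2 only Dtx1 of the 57 passed, where 1.1% of all genes did.

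Among the targets, 3 of 7 measured genes rose in Ly49G+ (Dtx1, Tcf7 and Myc) and 4 did not pass. Over all genes 1.82% passed toward Ly49G+. The list was chosen with earlier results of these data known and holds genes that other pathways also control, so nothing is read from this count about Notch targets. Tcf7, which encodes TCF1, a factor of early T and innate lymphoid cells, stood at 274.8, 298.4 and 317.0 CPM in Ly49G+ and 160.6, 207.5 and 212.5 CPM in Ly49I+ (log2 difference 0.63 ± 0.11, limma adjusted p = 0.0104). Every Ly49G+ library was above every Ly49I+ library, but the call was lost without Ly49G+ replicate 2 (adjusted p = 0.0819) or replicate 3 (0.0586). Myc, the growth regulator, stood at 78.8, 70.7 and 95.2 CPM in Ly49G+ and 48.2, 58.7 and 61.7 CPM in Ly49I+ (0.53 ± 0.13, limma adjusted p = 0.0442). That call lay at the threshold and was lost without any one Ly49G+ library or Ly49I+ replicate 2 (adjusted p from 0.0756 to 0.136).

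Nrarp, a small protein made on Notch activation that dampens the signal, is with Hes1 and Dtx1 among the most direct targets. It stood at 101.1, 101.0 and 111.8 CPM in Ly49G+ and at 79.5, 102.4 and 114.2 CPM in Ly49I+, with overlapping groups and the widest spread in Ly49I+. Its log2 difference was 0.10 ± 0.12 (95% interval -0.17 to 0.37, limma adjusted p = 0.672), and -0.05 without Ly49I+ replicate 1. Of these 3 targets Dtx1 passed and Nrarp and Hes1 did not, and the difference between the genes was not tested. The cyclin gene Ccnd1 differed by -0.31 ± 0.18 (adjusted p = 0.335).

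Of the measured genes for glycosylation or cleavage of the receptor 0 passed the test, where 3.59% of all genes did. The Fringe enzymes add sugars to Notch that change which ligands it answers. Lfng stood at 345.4, 294.8 and 385.3 CPM in Ly49G+ and 353.4, 414.6 and 526.7 CPM in Ly49I+ (log2 difference -0.33 ± 0.14, limma adjusted p = 0.236, and 0.0235 with the block). Mfng stood at 41.5, 41.3 and 42.5 CPM in Ly49G+ and 46.2, 50.2 and 67.0 CPM in Ly49I+ (-0.36 ± 0.13, adjusted p = 0.152, and 0.0323 with the block). For both, Ly49I+ replicate 3 was the highest library, as it was for Notch1. The log2 difference of Furin, which cuts the receptor on its way to the surface, was -0.30 ± 0.15 (adjusted p = 0.292, but 0.0411 under the replicate block). With the block 11.7% of all genes passed. Differences of the 5 measured glycosylation genes ran from -0.36 to -0.04. Pofut1 and Poglut1, which add the first sugars to the receptor, differed by -0.10 ± 0.11 and -0.17 ± 0.14.

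Of 5 measured gamma-secretase genes 0 passed, with differences from -0.33 to 0.07. As 3.59% of all genes passed, a count of 0 in lists as short as those named here says little about them. Ncstn, which encodes the subunit that receives substrates, differed by -0.21 ± 0.09 (adjusted p = 0.219). Of 3 measured genes for ubiquitin ligases of ligands 0 passed, and Mib2, which drives uptake of Delta ligands in the sending cell, differed by -0.35 ± 0.18 (adjusted p = 0.313). Of 13 corepressor genes 0 passed. Spen, which represses with RBPJ, differed by -0.18 ± 0.08 (adjusted p = 0.25) and Cir1, an RBPJ-binding corepressor, by 0.31 ± 0.10 (adjusted p = 0.132). The histone deacetylase gene Hdac2 differed by 0.27 ± 0.10 (adjusted p = 0.187) and passed with the block (0.0468), where 11.7% of all genes did. Mfng and Hdac2 were named after their values were seen.

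**Figure D3:**
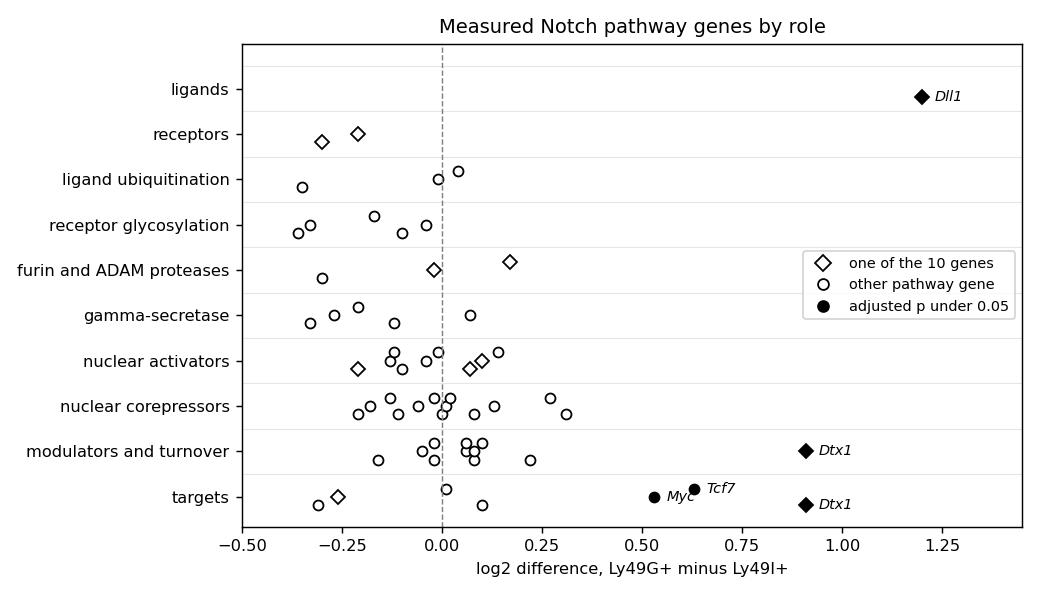
Log2 difference of Ly49G+ minus Ly49I+ (x axis) for the 57 measured pathway genes by role (y axis, a gene in 2 roles shown in both), with diamonds for the 10 genes and filled symbols for an adjusted p under 0.05. The filled symbols are Dll1, Dtx1, Tcf7 and Myc, all to the right, while the rest lie between -0.36 and 0.31.

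Genes with the most similar pattern over the 6 libraries were found by the root mean square difference of log2 values after subtracting each gene's mean. For Dll1 the closest were Klra1 (0.172 on the log2 scale), Gpr55 (0.200), Csf2 (0.221), Mgst2 (0.226) and Cd3d (0.228), where the median gene was at 0.651. Klra1 encodes the inhibitory receptor Ly49A, Csf2 the cytokine GM-CSF and Cd3d a chain of the T cell receptor complex. For Dtx1 the closest were Mgst2 (0.126), Camk4 (0.133), Dsp (0.162), Crtam (0.168) and Ctla2a (0.174), with the median gene at 0.505. Crtam encodes an adhesion receptor of activated lymphocytes. With 6 libraries in 2 groups, this measure finds mainly genes that differ between the groups by a like amount. The lists share Mgst2, and Cd3d is in that of Dll1 only.

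**Figure D4:**
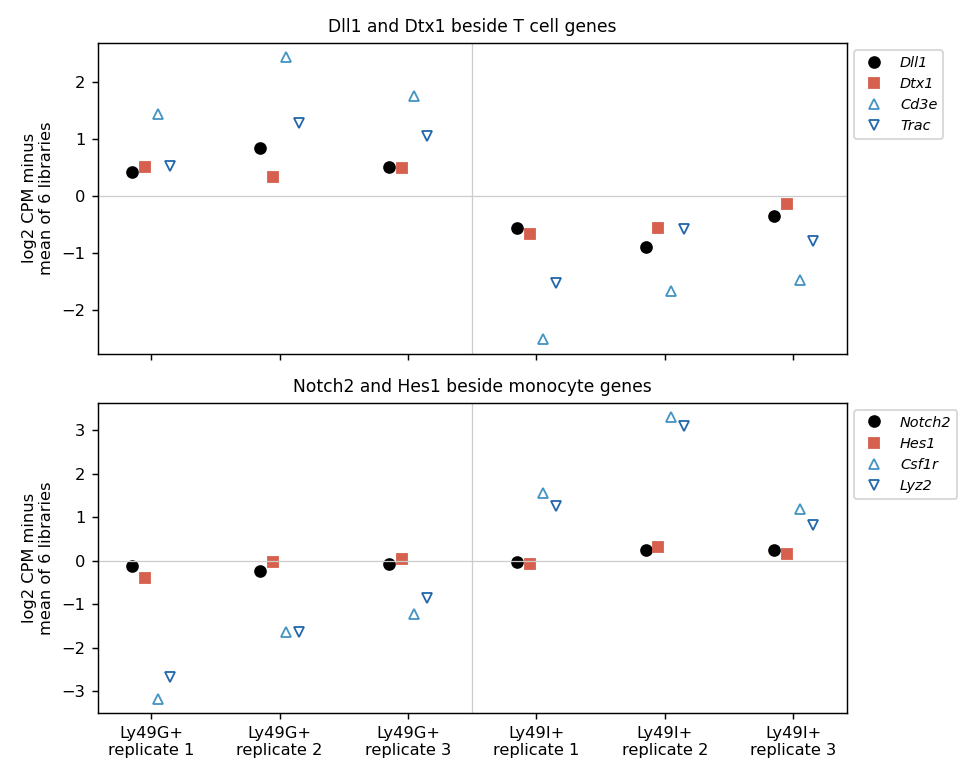
Log2 CPM minus the mean of the 6 libraries (y axis) for each library (x axis), with Dll1 and Dtx1 beside the T cell genes Cd3e and Trac in the upper panel and Notch2 and Hes1 beside the monocyte genes Csf1r and Lyz2 in the lower one. The T cell genes are above the mean in all Ly49G+ libraries, as Dll1 and Dtx1 are, and the monocyte genes peak in Ly49I+ replicate 2, where Notch2 is level with replicate 3.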

How the data were processed

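RNA of 6 libraries was sequenced, 3 of Ly49G+ and 3 of Ly49I+ NK cells. The libraries kept the strand, took 0.4 µg of total RNA each and were read as pairs of 100 bases, per the labels' protocols. The tools named are STAR 2.3.0, CASAVA 1.8.2 and limma, with build mm10, per the submitters' processing notes. No source used here names the counter, the annotation or a filter for low genes. The authors deposited log2 CPM, and the values follow the voom formula (0.5 added to each count, 1 to the total): solving it gave whole reads for 100% of 51120 values within 0.001 read. Every gene reached 10.0 CPM in at least 2 libraries, so genes outside the table were not analysed here.

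The deposited log2 values were fitted as they are with limma 3.58.1 in R 4.3.3 (linear model per gene, empirical Bayes with intensity trend, two-sided). Entrez numbers were named through RefSeq GRCm38.p6 (8429 genes) and GENCODE M21 (1 gene), and 90 found no name. Exon lengths, the union over transcripts, came from GENCODE M21 for 8275 genes. On data simulated from these libraries for this comparison, with 200 of 8520 genes changed, 85.1% of log2 changes of 0.5 and 100% of those of 1 or 2 were called, with 12 false calls. The simulation drew each gene and library independently, so it held no deviations that many genes of a library share. On the real libraries the test can thus do worse than these numbers. Exact tests used scipy 1.17.1, tables pandas 2.3.3 in Python 3.11.15, and plots matplotlib 3.10.9.

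The labels give both groups replicates 1 to 3 without saying what a number shares. Deviations from the group means correlated at 0.37, 0.11 and 0.16 over all genes for replicates 1, 2 and 3, so the numbers were taken as pairs for the alternative with a replicate block. The strongest match across numbers was 0.36, between Ly49G+ replicate 3 and Ly49I+ replicate 2. Alternatives were other priors, scalings, weights, a pseudocount of 2 reads, a minimum mean log2 CPM of 4, each library left out, and, chosen after seeing the data, both libraries numbered 2 left out. Named were the 10 genes, pathway genes past the threshold, up to 3 others per list in list order, and the 5 genes most like each member that passed. The members and lists were chosen with earlier results of these data known.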

Additional observations from a re-analysis of the deposited data

How the results depend on the processing

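Of the 10 genes, 142 of 148 recomputed differences kept their direction and their side of the threshold. Adam17, at -0.02, moved between -0.07 and 0 and had no direction at 0, without Ly49I+ replicate 1. Nrarp, at 0.10, reversed to -0.05 without that library and ranged up to 0.21. The Notch2 to Notch1 ratio, at -0.09, reversed to 0.06 without Ly49I+ replicate 2 and ranged down to -0.23.

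The number of the 10 genes called was 2, and 1 with a minimum mean of 4, which removed Dll1 and Hes1 from the genes tested. Leaving out single libraries gave 1 to 3, and leaving out both libraries numbered 2 gave 0. For the 57 pathway genes it was 4, then 9 with the replicate block, 2 with the minimum mean, 1 to 11 with single libraries left out and 0 without both libraries numbered 2. Over all genes it was 306, then 993 with the replicate block, 94 to 644 with single libraries left out and 48 without both libraries numbered 2, a fit with fewer samples. The block changed the call of Notch2, Lfng, Mfng, Furin and Hdac2 and of no other of the 57 pathway genes. Of the 9 genes with patterns most like Dll1 or Dtx1, it changed that of Camk4 (adjusted p = 0.0669, and 0.0285 with the block). Dll1 passed in 12 of 14 alternatives (adjusted p from 0.00203 to 0.188), Dtx1 in 14 of 15 (8.77e-05 to 0.0741), Tcf7 in 12 of 15 and Myc in 7 of 15. The Dll1 tally is not counted as support. Each alternative reused its values, and Dll1 met the 10 CPM floor through Ly49G+ libraries alone. Dll1 and Hes1 rest on the fewest reads, from 186 to 613 per library, and with 3 libraries per group the spread between libraries limits the rest.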
